A study of Mus musculus with 12 samples.

Results

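The clustered histone genes are the genes that encode the linker histone H1 and the core histones H2A, H2B, H3 and H4 from tandem arrays in the genome. They were taken as every row of the gene table whose Ensembl identifier carries a mouse symbol beginning Hist1h, Hist2h, Hist3h or Hist4h and whose counts sum to at least 10 over the 12 libraries. The table has 70 such genes among 55822 rows, and 65 of them reached the minimum: 6 H1, 17 H2A, 18 H2B, 11 H3 and 13 H4 genes. On the mouse build GRCm38, 52 lie in the Hist1 cluster (chr13:21715763-23764406), 9 in Hist2 (chr3:96219865-96270132), 3 in Hist3 (chr11:58948920-58956830) and 1, Hist4h4, on chromosome 6. A total of 60 of the 65 have a single annotated exon.

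The RNA was from primary smooth muscle cells of the mouse aorta. For the conditioned-medium groups they were starved of serum for 48 h in 0.3% serum and then kept for 24 h in medium conditioned by bone marrow-derived macrophages. One group of 4 libraries received medium from naive macrophages (naive CM), and another group of 4 received medium from macrophages that had been treated overnight with 20 ng/mL interferon-γ and for 4 h with 100 ng/mL lipopolysaccharide, then washed (IFNγ/LPS CM). Both conditioned media contained 0.3% serum and 10 ng/mL M-CSF. The last group of 4 was kept in regular growth medium. The labels give the same protocol text, starvation included, for every sample, and do not say what the regular medium contained or whether these cells were starved before it; neither strain, age nor genotype is given. The libraries are labelled as biological replicates, with no word on separate cultures or animals. The p-values therefore reflect only how these libraries varied, which may be technical.

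Histone genes of these clusters are transcribed mainly in S phase, when new chromatin needs histones for packing, and their mRNAs fall again when DNA synthesis stops. Most of their mRNAs do not end in a poly(A) tail. They end in a short stem-loop that is bound by the stem-loop binding protein SLBP and trimmed by a machinery that includes the U7 snRNP. Some of the genes also give polyadenylated forms, by reading through the stem-loop to a downstream poly(A) signal. The libraries were made with a poly(A)-selecting mRNA kit, so the counts describe histone RNA that was captured by such a selection and not the whole histone mRNA pool.

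A stem of 6 base pairs closing a loop of 4 bases, the form of the histone stem-loop, was found within 100 bases after the stop codon in 45 of the 65 annotated transcripts, at 21 to 58 bases (median 31). Of the 20 without a match, 15 have an annotated 3′ UTR under 40 bases, too short to hold it at that distance. The element is shown for members described below because it is what sets the usual 3′ end of these RNAs; capitals mark stem and loop, letters are the DNA strand of the transcript, and the flanks are 5 bases.
Hist1h1c: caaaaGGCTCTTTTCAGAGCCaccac
Hist3h2a: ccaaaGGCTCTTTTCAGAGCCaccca
Hist1h2bb: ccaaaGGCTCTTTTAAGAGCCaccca
Hist1h3g: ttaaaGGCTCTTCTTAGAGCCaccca
Hist1h4d: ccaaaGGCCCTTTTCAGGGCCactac
Hist1h4h: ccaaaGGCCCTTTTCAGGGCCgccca
The core shown for Hist1h1c was the most frequent, in 25 members of the H1, H2A, H2B and H3 families. The core shown for Hist1h4d and Hist1h4h, with a different stem, occurred in 7 members, each of them an H4 gene. Hist3h2a and Hist1h1c carry the same core, and Hist1h1c fell where Hist3h2a did not pass the test.

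The upstream sequences of the members also share short elements. RefSeq promoters (GRCm38.p6, from 250 bases before to 50 bases after the start) were matched for 59 of the 65 members. CCAAT, on either strand, was present in 84.7% of these against 41.1% of 27025 promoters of all genes, TATAA in 81.4% against 28%, and the octamer ATTTGCAT in 20.3% against 1.97%. CCAAT was found in each of the 6 H1, 17 H2A, 15 H2B and 9 H3 promoters but in 3 of the 12 H4 promoters, and the octamer in 6 H2A and 6 H2B promoters and in no other family. These promoters are not all independent. Some neighbouring H2A and H2B genes on opposite strands have overlapping windows, such as Hist1h2ae (chr13:23571171-23571470) and Hist1h2bg (chr13:23571150-23571449). The same element can then be counted for both genes. The promoters of 3 genes described below are printed (an H1, an H2B and an H4 gene), with capitals marking the motifs on either strand; a match is a string of letters and not a measured binding site.
Hist1h1b, chr13:21780576-21780875, minus strand: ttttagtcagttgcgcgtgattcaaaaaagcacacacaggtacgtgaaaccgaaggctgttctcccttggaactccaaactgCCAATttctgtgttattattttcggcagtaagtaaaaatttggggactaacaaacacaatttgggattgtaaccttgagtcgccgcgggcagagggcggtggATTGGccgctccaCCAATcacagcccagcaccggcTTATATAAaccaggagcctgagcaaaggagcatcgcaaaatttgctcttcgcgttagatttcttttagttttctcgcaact
Hist1h2bb, chr13:23746484-23746783, plus strand: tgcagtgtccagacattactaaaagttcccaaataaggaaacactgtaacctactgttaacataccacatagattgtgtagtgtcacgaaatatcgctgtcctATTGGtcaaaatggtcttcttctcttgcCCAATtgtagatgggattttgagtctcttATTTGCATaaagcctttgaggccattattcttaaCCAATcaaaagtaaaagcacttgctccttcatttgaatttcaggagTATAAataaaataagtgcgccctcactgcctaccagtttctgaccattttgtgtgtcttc
Hist1h4h, chr13:23530794-23531093, plus strand: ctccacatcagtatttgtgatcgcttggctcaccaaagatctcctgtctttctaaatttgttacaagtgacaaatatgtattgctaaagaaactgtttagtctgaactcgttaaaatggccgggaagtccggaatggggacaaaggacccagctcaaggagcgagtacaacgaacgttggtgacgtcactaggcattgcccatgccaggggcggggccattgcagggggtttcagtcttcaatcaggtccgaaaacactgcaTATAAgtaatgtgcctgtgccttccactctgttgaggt

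Library totals ran from 28097496 to 61493375 counts, and the members together took between 0.0208% and 0.119% of them. Smooth muscle markers were present, led by Acta2, and their summed level was 334 to 417 CPM (counts per 1000000, on library totals scaled by the TMM method) in regular medium, 301 to 317 in naive CM, and 116 to 119 with IFNγ/LPS CM. The summed level of 16 macrophage markers was 33.3 to 36.8 CPM in the regular and naive groups and 901 to 1012 CPM in IFNγ/LPS CM. Of the 6 that passed the filter, 5 rose between naive CM and IFNγ/LPS CM and 1, Mertk, fell. Mean levels went from 0.309 to 874 CPM for Mpeg1, from 18.7 to 42.9 CPM for Cd14, from 1.07 to 6.19 CPM for Cd68, from 0.203 to 4.62 CPM for Csf1r and from 0.0785 to 0.472 CPM for Lyz2. Fcgr1 and C1qa were at 0 in every library, and Ptprc, Adgre1 and Itgam averaged under 0.05 CPM. Endothelial markers summed to at most 3.39 CPM in any library. The summed level of 8 adventitial fibroblast markers was 1643 to 1966 CPM in the regular and naive groups and 6717 to 7407 CPM in IFNγ/LPS CM. Of the 7 tested between the conditioned media, Dcn, Ly6a and Pdgfra rose, Pi16, Dpt and Cd34 fell and Lum did not pass. Whether other cells contribute to any histone result was not tested. In bulk RNA, fewer cycling cells and less histone RNA per cell cannot be told apart. After a poly(A) selection, neither can be told apart from a change in the captured share of histone RNA.

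One library stood apart on these genes. Regular medium replicate 4 had a summed member level of 1093 CPM, against 397, 343 and 326 CPM in replicates 1, 2 and 3. It was the highest of the 4 regular libraries for 58 of the 65 members, and its median ratio to the mean of the other 3 was 4.38. The ratio differed by family, with a median of 1.495 for H1, 2.17 for H2B, 4.47 for H3, 7.46 for H4 and 16.2 for H2A. Other replication genes did not share it: 30 S-phase genes summed to 966 CPM in replicate 4 and to between 913 and 1141 CPM in the other regular libraries. Among 11 histone variant genes outside the clusters the median ratio was 1.04, with H2afx at 3.27, H1fx at 3.16 and H2afj at 1.99. The small RNAs that carry no poly(A) tail (snRNA, snoRNA, scaRNA and other small RNA genes) summed to 475 CPM in replicate 4, within the 426 to 503 CPM of replicates 1 to 3. GC content moved with the library. On a log2(CPM + 0.5) scale, protein-coding genes outside the clusters had a median ratio of 0.959 in the lowest of 10 equal GC classes. It was 1.19 in the highest class (57.8% to 74.2% GC). The members' own transcripts have a median of 57.8% GC, at the lower edge of that class. Family medians are 53.2% for H1, 55.8% for H2B, 56.2% for H4, 60.2% for H3 and 64.2% for H2A. Single-exon genes in that highest class, 62 genes without the members, had a median ratio of 1.14, against 3.30 for the 60 tested members. Trends with GC content were also seen in other libraries. Against the other 3 of its group, regular medium replicate 2 ran from 1.09 in the lowest class to 0.872 in the highest. Its reference includes replicate 4, so the trends of these 2 libraries are not independent. Replicates 1 and 3, which also have replicate 4 in their reference, ran from 0.999 to 0.939 and from 0.95 to 0.991. Naive CM replicate 3 ran from 0.973 to 1.06, and IFNγ/LPS CM replicate 4 from 0.995 to 1.03. The part of GC content in the histone values was not tested. Counts of members are given with and without this library, as are the members named in the comparisons with regular medium, and since 1 model estimates the spread for all 12 libraries, it also bears on the comparison of the conditioned media.

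**Figure D1:**
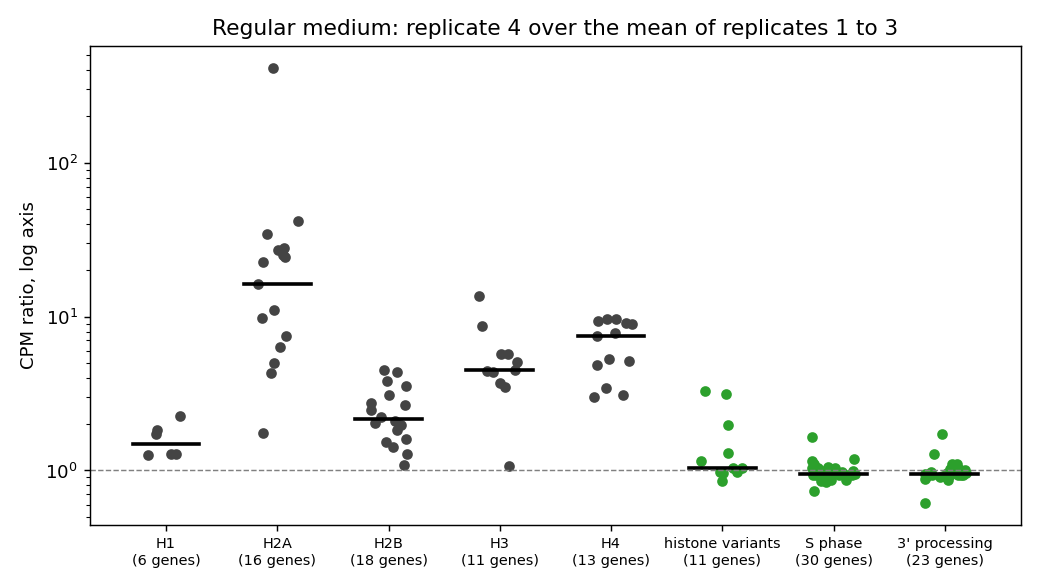
CPM of each gene in regular medium replicate 4 divided by its mean in replicates 1 to 3 (log axis; points are genes, bars are medians, the dashed line is a ratio of 1; a gene at 0 in replicate 4 is not drawn). The 5 histone families on the left have medians between 1.495 and 16.2, while the medians of the variants, the S-phase genes and the 3′ processing genes lie between 0.948 and 1.04.

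Smooth muscle cells in IFNγ/LPS CM had less clustered histone RNA captured by the poly(A) selection than cells in naive CM. The summed level was 795, 831, 993 and 828 CPM in the 4 naive CM libraries and 272, 261, 249.6 and 304 CPM in the 4 libraries of IFNγ/LPS CM. The means differed 3.17-fold and the groups did not overlap. H3 members together differed most, at 86.6 ± 16.2 CPM in naive CM, and 12.2 ± 3.76 CPM with IFNγ/LPS CM (SD, n = 4 each). H1 summed to 327 ± 15.5 against 101.8 ± 5.01 CPM, H2B to 270 ± 19.7 against 87.1 ± 7.69 CPM, H4 to 126 ± 30.6 against 43.1 ± 11.3 CPM and H2A to 52.0 ± 9.01 against 27.6 ± 2.47 CPM. Naive CM replicate 3 was the highest naive library in all 5 families, and IFNγ/LPS CM replicate 4 the highest of its group in every family except H1.

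**Figure D2:**
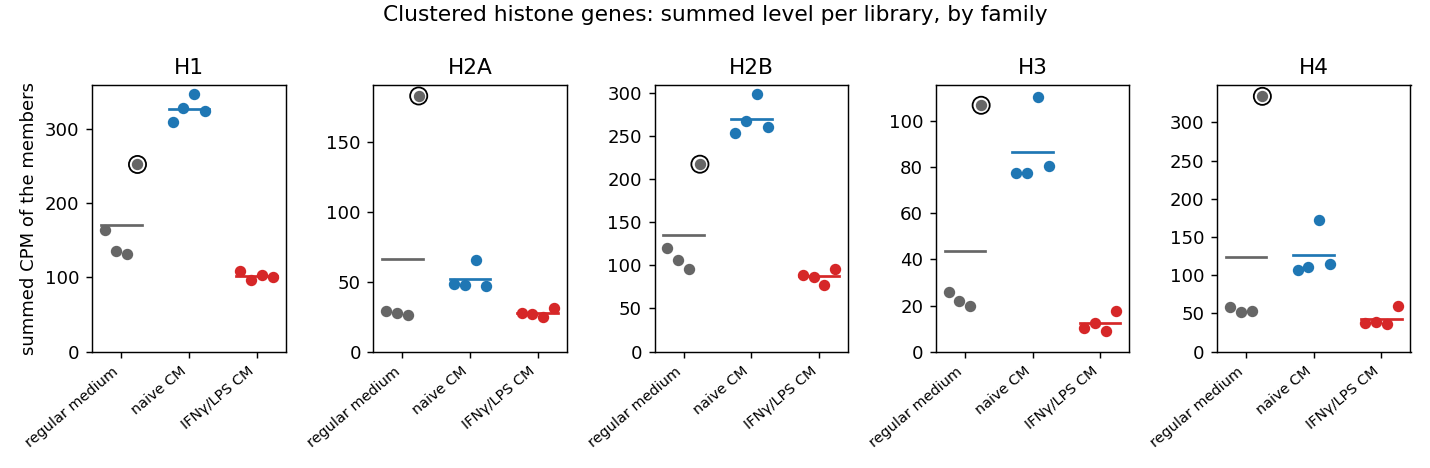
Summed CPM of the members of each histone family in each library (points), with group means as bars; regular medium replicate 4 is ringed. In every family the 4 naive CM libraries lie above the 4 IFNγ/LPS CM libraries, and the ringed library lies above the naive CM libraries in H2A and H4.

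Of the 60 members that passed the filter on low counts, 41 fell in IFNγ/LPS CM, 0 rose and 19 did not pass an adjusted p of 0.05 (edgeR). Over all 16140 genes tested, 35.8% were lower and 36.1% higher in this comparison, so calls were common in either direction. The members' median log2 fold change was -2.52, unchanged when the 2 members with no count in IFNγ/LPS CM are set to their bound, and the median of all genes tested was 0.004. Without regular medium replicate 4, 56 of 61 tested members fell, against 36.3% of all genes lower and 36.6% higher. With the 8 conditioned-medium libraries alone, 54 of 59 fell, against 37.4% of all genes lower and 38.1% higher. All 41 members called with 12 libraries were also called without replicate 4, and 14 were gained. No member was called higher by limma-voom or by DESeq2, which in each comparison gave an adjusted p to 46 of the 60 members. At an unadjusted edgeR p under 0.05 with all libraries, 0 were higher and 43 lower. Without regular medium replicate 4, 1 member, an H2A gene, was higher and 56 were lower at that unadjusted p. The H2A gene Hist3h2a was the only tested member with a log2 fold change above 0 with all libraries. When every row was kept instead of filtering on low counts, 39 of the 65 fell. Shares of all genes are not given for the counts at an unadjusted p or with every row kept.

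All 5 tested H1 genes fell. H1 proteins bind the DNA that enters and leaves the nucleosome, and the cluster encodes several subtypes. Hist1h1b (chr13:21779883-21780625, minus strand) was at 54.0, 63.5, 59.1 and 54.3 CPM in naive CM and at 2.64, 2.75, 2.13 and 3.45 CPM in IFNγ/LPS CM. That is 21.1-fold lower, a log2 fold change of -4.40 (SE 0.19, adjusted p = 8.56e-10), the largest change among H1 genes. Hist1h1d (chr13:23553262-23560686) went from 53.6, 59.2, 64.9 and 59.2 CPM to 9.47, 9.55, 9.70 and 10.9 CPM (log2 fold change -2.58, SE 0.29, adjusted p = 2.05e-05). Hist1h1a, another H1 subtype gene, gave 28.8, 30.4, 32.2 and 27.1 CPM against 3.58, 5.01, 2.30 and 5.72 CPM (log2 fold change -2.84, SE 0.28, adjusted p = 5.94e-06). Smaller falls were seen in the 2 H1 genes with the highest levels. Hist1h1c (chr13:23738808-23740367), the member with the highest mean level both in CPM and per kilobase of transcript, was at 91.7, 96.7, 99.5 and 96.8 CPM in naive CM and at 61.0, 52.6, 57.3 and 51.7 CPM in IFNγ/LPS CM (log2 fold change -0.79, SE 0.17, adjusted p = 0.00234). Hist1h1e stood at 80.9, 78.2, 91.0 and 87.2 CPM against 31.2, 26.0, 31.7 and 28.5 CPM (log2 fold change -1.52, SE 0.21, adjusted p = 8.62e-05). None of these 5 genes had overlapping groups. The share of all genes without overlap is not given, so non-overlap of single genes, here and below, only describes the printed values. The H1 gene Hist1h1t had 16 counts in all and was not tested.

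H2B forms a dimer with H2A in the nucleosome, and 15 of its 16 tested members fell. Hist1h2bb (chr13:23746734-23747241), whose stem-loop and promoter are printed above, was at 42.1, 42.0, 46.5 and 42.2 CPM in naive CM and at 3.74, 4.95, 3.96 and 6.14 CPM in IFNγ/LPS CM (log2 fold change -3.20, SE 0.29, adjusted p = 2.53e-06). Hist2h2bb (chr3:96269752-96270132) showed 28.4, 29.3, 34.9 and 28.4 CPM against 1.83, 1.85, 2.22 and 2.89 CPM (log2 fold change -3.78, SE 0.16, adjusted p = 6.56e-11). Both pairs of groups were far apart. Hist1h2be, with an annotated 3′ UTR of 1906 bases, was at 27.0, 31.2, 33.95 and 29.7 CPM against 10.2, 9.17, 9.17 and 11.7 CPM (log2 fold change -1.60, SE 0.28, adjusted p = 4.29e-04). Hist1h2bh, at 14.9, 16.8, 17.9 and 15.5 CPM against 1.21, 1.22, 0.970 and 2.01 CPM, was 12.1-fold lower (adjusted p = 1.94e-05). Hist1h2bn and Hist1h2bl had log2 fold changes of -2.70 and -2.05 (adjusted p = 6.93e-06 and 1.28e-04), and they share 88.0% and 88.6% of their 31-base words with other genes.

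The exception among H2B genes was Hist1h2bc (chr13:23684199-23692908), the member next after Hist1h1c in mean level per kilobase of transcript. Its levels were 51.0, 45.8, 43.9 and 45.9 CPM in naive CM and 48.8, 47.5, 44.4 and 45.0 CPM in IFNγ/LPS CM, which overlap. The log2 fold change was -0.01 (SE 0.15, adjusted p = 0.967; without regular medium replicate 4, -0.01, SE 0.06, adjusted p = 0.884). No stem-loop was found after the stop codon of its annotated transcript, whose 3′ UTR has 742 bases. That transcript is spliced from 2 exons, and the genomic sequence between them was not searched. Hist1h2bc made up 14.7% to 20.1% of the summed H2B level in naive CM, and 47.0% to 57.6% with IFNγ/LPS CM. Without it, H2B summed to 223 ± 22.2 CPM and 40.7 ± 7.49 CPM, a ratio of 5.49.

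Among the H2A genes Hist3h2a made up most of the level in IFNγ/LPS CM. It lies on chromosome 11 (chr11:58954685-58956830), has an annotated 3′ UTR of 1700 bases with a poly(A) signal near its end, and carries the stem-loop printed above. Levels were 20.3, 20.2, 22.4 and 19.0 CPM in naive CM and 23.0, 22.7, 21.0 and 22.6 CPM in IFNγ/LPS CM, a log2 fold change of 0.13 (SE 0.17, adjusted p = 0.536), and of -0.26 when counts were scaled by library totals. With TMM scaling and each library left out in turn, the log2 fold change ran from 0.089 to 0.166. It supplied 34.2% to 42.8% of the summed H2A level in naive CM, and 73.4% to 84.4% with IFNγ/LPS CM. The other H2A members together were at 31.5 ± 7.73 CPM and 5.33 ± 1.95 CPM, a ratio of 5.91.

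Of the 15 tested H2A members, 6 fell with all 12 libraries, near the 35.8% of all genes lower. Without regular medium replicate 4, 12 fell, against 36.3% of all genes. Individual H2A values are uncertain, because a median of 79.8% of the 31-base words of an H2A transcript occurs in other genes, and reads of such copies are divided by estimation. Hist1h2ao, for instance, had 116 estimated counts in naive CM replicate 1 and 0 in the other 3 naive libraries. Hist1h2ap, which shares 93.4% of its words with other genes, was at 3.18, 4.63, 8.15 and 5.22 CPM in naive CM; with IFNγ/LPS CM it had 18 counts in replicate 3 and 0 in the other 3 libraries (log2 fold change -5.34, SE 2.08, adjusted p = 0.0425); without any 1 of the 8 conditioned-medium libraries it did not pass (adjusted p from 0.0548 to 0.0947). For Hist2h2ab 75 counts were summed in naive CM, and 0 with IFNγ/LPS CM, which is at least 17.7-fold lower against a floor of 3 counts over the group (adjusted p = 3.04e-05). Hist1h2af had 141 counts and 0, at least 33.3-fold lower, but did not pass the test with all libraries (adjusted p = 0.0791; without regular medium replicate 4, 1.51e-07). Hist1h2ag, at 1.02 to 1.80 CPM against 0.0269 to 0.206 CPM, was lower (log2 fold change -4.15, SE 1.20, adjusted p = 0.0102). Hist1h2an had 115 counts in naive CM, and 2 with IFNγ/LPS CM, 40.7-fold lower after scaling for depth, with 95% limits from counting error of 11.0 and 340 (adjusted p = 0.0734; without regular medium replicate 4, 1.79e-06). Hist2h2aa2, all of whose 31-base words occur elsewhere, showed 5.80, 7.56, 12.7 and 7.29 CPM against 0, 1.33, 0.832 and 2.98 CPM (adjusted p = 0.083; without regular medium replicate 4, 0.00505).

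H3 and H4 form the tetramer at the centre of the nucleosome. Among H3 genes 10 of 11 fell, and 11 without regular medium replicate 4. Hist1h3g was at 9.90, 8.98, 11.6 and 10.0 CPM in naive CM and at 0.323, 0.608, 0.360 and 1.09 CPM in IFNγ/LPS CM (log2 fold change -4.09, SE 0.58, adjusted p = 1.05e-04). Hist2h3b, at 3.68, 2.80, 5.20 and 3.25 CPM against 0.0538, 0.145, 0.0832 and 0.236 CPM, had the lowest fold change of the family (log2 fold change -4.83, SE 1.06, adjusted p = 0.00217). Neither gene had overlapping groups. Of 13 H4 genes 5 fell with all libraries, near the 35.8% of all genes lower. Without regular medium replicate 4, 12 fell, against 36.3% of all genes. H4 was the family in which that library changed the count most. Hist1h4h was at 15.5, 13.9, 24.5 and 15.6 CPM against 2.26, 3.53, 2.66 and 4.40 CPM (log2 fold change -2.43, SE 0.87, adjusted p = 0.0295; without replicate 4, SE 0.24, adjusted p = 1.05e-05). That call was lost without naive CM replicate 3 or IFNγ/LPS CM replicate 1, 2 or 3 (adjusted p from 0.0592 to 0.0722). Hist1h4d, the H4 gene with the highest mean level, was at 27.8, 29.5, 41.6 and 28.1 CPM against 12.2, 11.9, 11.5 and 20.8 CPM; its log2 fold change of -1.17 passed the test only without that library (adjusted p = 0.109 with it, 9.74e-04 without). Hist1h4c behaved likewise, at 17.7, 17.6, 27.5 and 19.0 CPM against 7.99, 7.52, 7.62 and 11.3 CPM (log2 fold change -1.24, adjusted p = 0.0803 with the library, 1.53e-04 without). Hist2h4 (4.77 to 6.87 CPM against 4.80 to 5.10 CPM), named here after its values were seen, was the H4 gene that passed in neither fit (log2 fold change -0.18, adjusted p = 0.687 and 0.19).

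**Figure D3:**
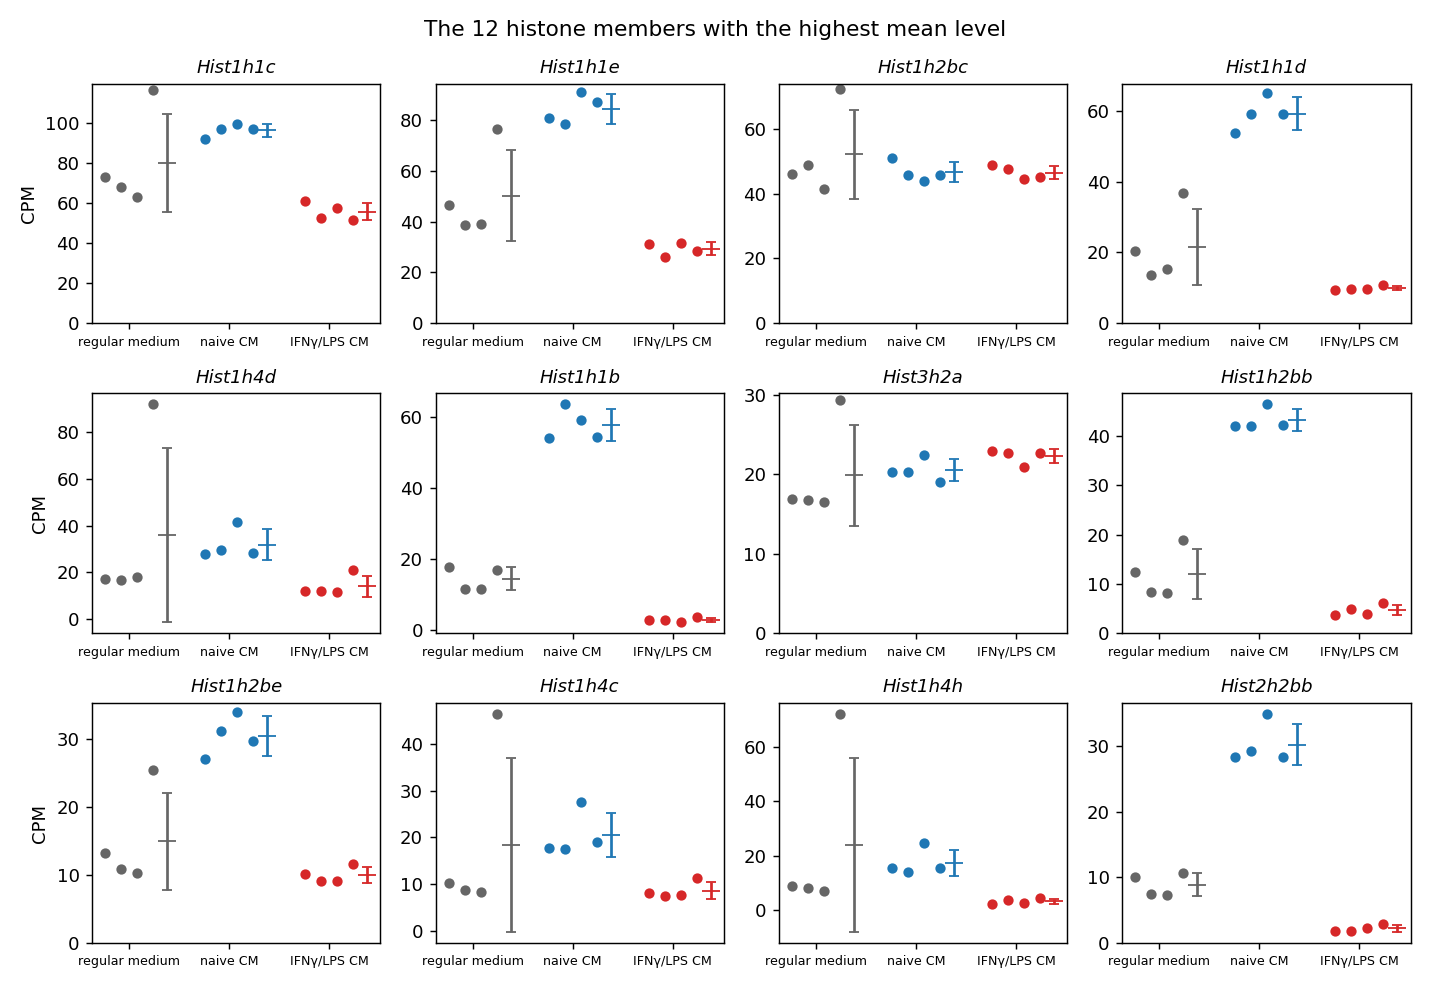
CPM of the 12 members with the highest mean level in each library (points), with mean and SD of the 4 libraries of a group beside them; the vertical scale differs between panels. Hist1h2bc and Hist3h2a overlap between the conditioned media, the other 10 members are lower in every IFNγ/LPS CM library than in every naive CM library, and regular medium replicate 4 is far above the other regular libraries for the 3 H4 genes.

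Fold changes were smaller among members with a long annotated 3′ end. Among the 22 tested members with an annotated 3′ UTR of at least 200 bases the median log2 fold change was -1.41 and 14 fell (19 without regular medium replicate 4). Among the 38 tested members with a shorter one it was -2.97 and 27 fell (37 of 39 without replicate 4). Summed levels of the longer class were 462 to 557 CPM in naive CM, and 217.4 to 241 CPM with IFNγ/LPS CM, 2.18-fold apart in their means. For the shorter class they were 333 to 436 CPM and 31.6 to 63.7 CPM, 8.28-fold apart. The classes differ in family as well, since 2 of 17 H2A but 4 of 6 H1 genes are in the longer class, and in shared sequence; the difference between the classes is a description and was not tested.

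**Figure D4:**
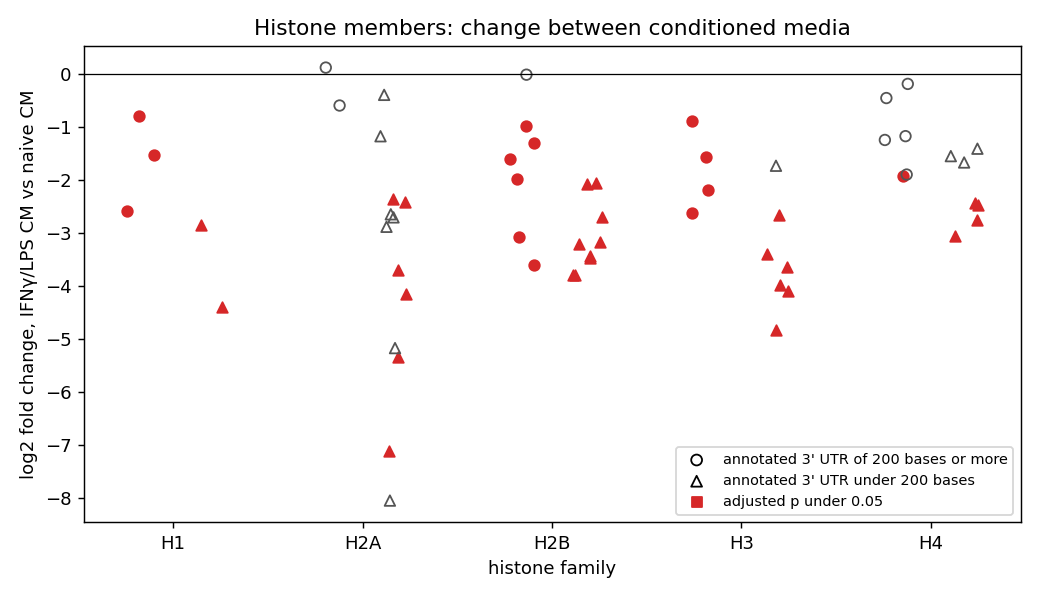
Log2 fold change of each tested member between IFNγ/LPS CM and naive CM (vertical axis), by family and by length of the annotated 3′ UTR (circles, 200 bases or more; triangles, shorter); filled red symbols passed an adjusted p of 0.05 with all 12 libraries. Hist3h2a, at 0.13, is the 1 symbol above 0, and the open symbols are mostly H2A and H4 genes.

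Summed over all members, whether naive CM lay above regular medium in every library depended on 1 library. For summed H1 and summed H2B it did not, as every naive CM library lay above every regular library, replicate 4 included. Replicate 4 was above all naive CM libraries in summed H2A and H4, and above some of them in summed H3. The summed level of all members was 795 to 993 CPM in the 4 naive CM libraries. That is above the 326 to 397 CPM of regular medium replicates 1 to 3 and below the 1093 CPM of replicate 4. The naive CM mean was 1.60 times that of all 4 regular libraries and 2.42 times that of replicates 1 to 3. With all 12 libraries 18 of 60 tested members were higher in naive CM, 0 were lower and 42 did not pass, against 18.3% higher and 16.4% lower over all genes tested. The members' median log2 fold change was 0.50 and that of all genes -0.02. Without regular medium replicate 4, 55 of 61 were higher and 0 lower with a median of 1.73, against 18.3% higher and 15.8% lower over all genes. The 18 members called with all libraries were called without it too, and 36 were gained. At an unadjusted edgeR p under 0.05, 23 members were higher and 0 lower, and 0 were lower by DESeq2 or limma-voom. The share of all genes at that unadjusted p is not given.

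With all libraries the calls were 12 of 16 H2B, 4 of 5 H1 and 2 of 11 H3 genes, against 18.3% of all genes higher. None of 15 H2A or 13 H4 genes was called. At an unadjusted edgeR p under 0.05, 1 H2A and 1 H4 gene were higher, and limma-voom called 2 in each of these families. DESeq2 called 0 of the 9 H2A and 1 of the 6 H4 genes to which it gave an adjusted p. Without replicate 4 the calls were 16 of 17 H2B, 5 of 5 H1, 10 of 11 H3, 11 of 15 H2A and 13 of 13 H4 genes. Against all 4 regular libraries the summed level in naive CM was 1.91 times as high for H1, 2 for H2B and 1.99 for H3, and 1.01 times for H4 and 0.783 times for H2A, so H2A turned direction with that library. Against replicates 1 to 3 it was 2.28 times as high for H1, 1.89 for H2A, 2.51 for H2B, 3.85 for H3 and 2.32 for H4.

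**Figure D5:**
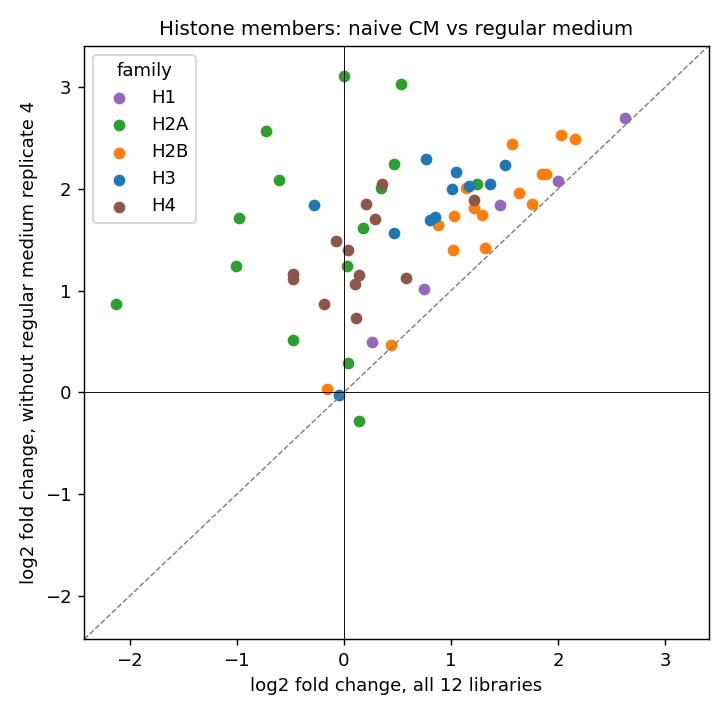
Log2 fold change of 60 members between naive CM and regular medium with all 12 libraries (horizontal) and without regular medium replicate 4 (vertical); the dashed line marks equal values. A total of 59 members lie above the line, and the points farthest above it are H2A genes.

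The largest rise past the test was that of Hist1h1a, at 6.46, 3.84, 3.00 and 5.64 CPM in regular medium against 27.1 to 32.2 CPM in naive CM, 6.17-fold higher (log2 fold change 2.62, SE 0.27, adjusted p = 4.44e-05; without replicate 4, 2.70). Hist1h1b was at 17.6, 11.6, 11.5 and 17.0 CPM in regular medium, where replicate 4 is not the highest, and 3.99-fold higher in naive CM (log2 fold change 2.00, SE 0.15, adjusted p = 1.85e-06; without replicate 4, 2.08). Hist2h2bb, at 10.1, 7.52, 7.35 and 10.6 CPM, was 3.38-fold higher in naive CM (log2 fold change 1.76, SE 0.14, adjusted p = 4.92e-07; without replicate 4, 1.85). These 3 genes moved little with that library. Hist1h2bb at 12.3, 8.42, 8.07 and 18.9 CPM and Hist1h1d at 20.3, 13.5, 15.4 and 36.9 CPM were lower in every regular library than in any naive CM library. Their log2 fold changes were 1.85 and 1.46 (adjusted p = 3.41e-04 and 0.00241), and 2.15 and 1.85 without replicate 4. Hist1h2bl, Hist1h2bh and Hist1h2bn rose by log2 fold changes of 2.16, 2.03 and 1.89 (adjusted p = 2.90e-04, 0.00164 and 2.92e-04; without replicate 4, 2.49, 2.53 and 2.15). Hist1h1e rose by 0.75 (SE 0.20, adjusted p = 0.0176; without replicate 4, 1.02), and Hist1h2be by 1.02 (SE 0.26, adjusted p = 0.0139; without replicate 4, 1.41). Hist1h3g rose by 1.51 (SE 0.46, adjusted p = 0.0303), or 4.71-fold without replicate 4 (log2 fold change 2.23, SE 0.23, adjusted p = 8.3e-06). With replicate 4 kept, its call was lost without any 1 of the other 3 regular or the 4 naive CM libraries (adjusted p from 0.0534 to 0.0759).

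For other genes the call turned on replicate 4. Hist1h1c, at 72.7, 67.9, 62.9 and 116 CPM in regular medium, differed from naive CM by a log2 fold change of 0.27 (adjusted p = 0.277) with that library and of 0.50 (SE 0.06, adjusted p = 1.04e-06) without it. Hist1h4h was at 8.66, 7.98, 7.12 and 72.0 CPM, so its log2 fold change was -0.48 (adjusted p = 0.666) with the library and 1.11 (adjusted p = 0.00599) without. Hist1h4d, at 17.2, 16.7, 18.1 and 91.8 CPM, gave -0.19 (adjusted p = 0.841) and 0.87 (adjusted p = 0.0184). Hist1h4c at 10.2, 8.72, 8.34 and 46.4 CPM gave 0.14 (adjusted p = 0.878) and 1.15 (adjusted p = 0.00142). Hist3h2a, at 16.8, 16.7, 16.5 and 29.4 CPM, gave 0.04 (adjusted p = 0.886) and 0.29 (adjusted p = 0.00107). Hist1h2bc, at 46.2, 48.8, 41.3 and 72.2 CPM, passed in neither fit (adjusted p = 0.446 and 0.707).

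Between IFNγ/LPS CM and regular medium 36 of 60 tested members were lower, 0 higher and 24 did not pass, against 36.4% lower and 35.4% higher over all genes, with a members' median log2 fold change of -1.83. Without regular medium replicate 4, 31 of 61 were lower and 4 higher with a median of -0.74, against 35.4% lower and 35.2% higher over all genes. The counts lower were 23 without IFNγ/LPS CM replicate 1 and 21 without IFNγ/LPS CM replicate 3. At an unadjusted edgeR p under 0.05 with all libraries 0 members were higher and 42 lower, and 0 were higher by DESeq2 or limma-voom. Shares of all genes are not given for these alternative runs, so their counts are not read as a result about the members. This comparison shares its regular libraries with the one above and its IFNγ/LPS CM libraries with the first.

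Hist1h1b, at 11.5 to 17.6 CPM in regular medium and 2.13 to 3.45 CPM in IFNγ/LPS CM, was lower in both fits (log2 fold change -2.40, SE 0.19, adjusted p = 3.02e-07; without replicate 4, -2.32). Hist2h2bb fell by 2.02 on the log2 scale (SE 0.17, adjusted p = 8.46e-08; without replicate 4, by 1.94). Hist1h2af had the lowest fitted value. It was at 3.90 CPM in regular medium replicate 4 and at 0.0659 to 0.206 CPM in the other 3, and had 0 counts in IFNγ/LPS CM, at least 49.8-fold lower with all libraries (adjusted p = 0.0498) and at least 8.16-fold lower against replicates 1 to 3 (adjusted p = 2.13e-04). With replicate 4 kept, its call was lost without any 1 of the 8 conditioned-medium libraries (adjusted p from 0.0711 to 0.0766). Next were 3 other sparse H2A genes. Hist1h2an passed the test (adjusted p = 0.0342; without replicate 4, 0.0273) but not without any 1 of the IFNγ/LPS CM libraries (adjusted p from 0.0747 to 0.101). Hist2h2ab had 32 counts against 0, at least 7.38-fold lower (adjusted p = 9.65e-04), and at least 4.23-fold lower against replicates 1 to 3. Hist1h2ap (adjusted p = 0.0424; without replicate 4, 0.275) also lost its call without any 1 of the 8 conditioned-medium libraries (adjusted p at least 0.0546). Hist2h3b had a log2 fold change of -4.06 (SE 1.09, adjusted p = 0.00733) with all libraries and of -2.54 (adjusted p = 2.81e-06) without replicate 4. Hist2h2aa2 and Hist1h2bn lost their calls without replicate 4 (adjusted p = 0.0989 and 0.0671). Hist1h1a did not pass the test (log2 fold change -0.21, SE 0.30, adjusted p = 0.538; without replicate 4, -0.14). Hist3h2a was the named member called higher without replicate 4 (log2 fold change 0.42, SE 0.06, adjusted p = 5.53e-06; 0.17 and 0.407 with it); the others higher in that fit were Hist1h2bq, Hist2h4 and Hist1h4i.

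The genes that act beside the clusters were read from lists of related genes. Scaling by library totals in place of TMM took the all-gene median between the conditioned media, as a log2 fold change, from 0.004 to -0.38, so small changes in the lists below are relative to the scaling. All 30 S-phase and replication genes fell in IFNγ/LPS CM relative to naive CM (median log2 fold change -1.32), under both scalings, against the 35.8% of all genes lower. Mki67, a proliferation marker, was at 249 ± 12.0 CPM in naive CM, and 27.5 ± 6.26 CPM with IFNγ/LPS CM (log2 fold change -3.18, SE 0.14, adjusted p = 2.91e-09). Pcna, the sliding clamp of the replication fork, was at 146 ± 4.13 and 95.7 ± 2.49 CPM (log2 fold change -0.61, SE 0.05, adjusted p = 3.23e-09). Relative to regular medium, 29 of the 30 rose in naive CM (median 0.80), with and without replicate 4, against 18.3% of all genes higher. In IFNγ/LPS CM 25 fell relative to regular medium (median -0.60; 24 without replicate 4 and 30 by library totals), against 36.4% of all genes lower. In a list of 16 p53 and cell cycle exit genes, 10 were higher and 6 lower in IFNγ/LPS CM than in naive CM (7 and 8 by library totals), against 36.1% and 35.8% of all genes. Cdkn1a, the cyclin-dependent kinase inhibitor p21, was at 43.3 ± 2.81 CPM in naive CM, and 225 ± 15.4 CPM with IFNγ/LPS CM (log2 fold change 2.38, SE 0.08, adjusted p = 4.72e-12).

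The genes of the machinery that makes histone mRNA are read against shares of all genes of 36.1% higher and 35.8% lower. Of 23 genes for histone transcription and 3′ processing, 9 were higher, 11 lower and 3 did not pass between IFNγ/LPS CM and naive CM, with a median log2 fold change of -0.15 (2 higher and 17 lower by library totals). Slbp, the stem-loop binding protein, was at 41.7 ± 4.23 CPM in regular medium, 52.95 ± 1.16 CPM in naive CM, and 46.1 ± 1.78 CPM with IFNγ/LPS CM (log2 fold change between conditioned media -0.20, SE 0.06, adjusted p = 0.00495). Npat, the coactivator of histone gene transcription, differed by -0.33 (SE 0.05, adjusted p = 9.27e-06) and Casp8ap2, which works with it, by -0.22 (SE 0.05, adjusted p = 6.26e-04). The U7 snRNP proteins Lsm10 and Lsm11 differed by 0.00 (SE 0.07, adjusted p = 0.964; by library totals -0.39, adjusted p = 7.83e-05) and 0.31 (SE 0.08, adjusted p = 0.00202; -0.08 by library totals). Eri1, a 3′ exonuclease of histone mRNA decay, fell by 0.24 (SE 0.06, adjusted p = 0.00125). Of 23 genes of the poly(A) tail and cleavage machinery 9 were higher, 9 lower and 5 not past the test (2 higher and 17 lower by library totals).

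Most histone variant genes outside the clusters give ordinary polyadenylated mRNAs; H2afx also gives a stem-loop form, and Cenpa follows the cell cycle. Of 11, 7 fell, 2 rose and 2 did not pass between IFNγ/LPS CM and naive CM (9 lower and 1 higher by library totals; 7 and 3 without regular medium replicate 4), against 35.8% lower and 36.1% higher over all genes. The genes for the same replacement histone H3.3 went opposite ways: H3f3a was at 451 ± 8.16 CPM in naive CM, and 215.02 ± 9.05 CPM with IFNγ/LPS CM (log2 fold change -1.07, SE 0.05, adjusted p = 4.14e-13), while H3f3b was at 297 ± 8.79 and 787 ± 12.98 CPM (log2 fold change 1.41, SE 0.04, adjusted p = 2.94e-17; 1.02 by library totals). H2afz, which encodes H2A.Z, fell from 113 ± 5.63 to 39.0 ± 2.81 CPM (log2 fold change -1.54, SE 0.09, adjusted p = 8.25e-10). Cenpa, the centromeric H3, fell from 41.5 ± 2.44 to 4.14 ± 0.850 CPM (log2 fold change -3.33, SE 0.14, adjusted p = 4.98e-11). H2afx, the DNA damage variant, fell by 1.42 (SE 0.40, adjusted p = 0.00873) and H1fx by 2.56 (SE 0.47, adjusted p = 6.77e-05). MacroH2A (H2afy) rose by 0.16 (SE 0.04, adjusted p = 0.0026) but was at -0.23 by library totals. The linker histone of resting and differentiated cells, H1f0, was at 159 ± 3.92 and 156 ± 10.4 CPM (adjusted p = 0.587; by library totals lower by -0.42 on the log2 scale, adjusted p = 6.69e-08), and H2afj at 10.2 ± 0.460 and 14.0 ± 1.01 CPM (adjusted p = 0.0762; without regular medium replicate 4, 9.62e-06). Of 17 histone chaperones, 9 were lower and 6 higher (14 and 2 by library totals), and Asf1b, which hands over new H3 and H4 in replication, fell from 23.4 ± 1.62 to 4.95 ± 1.15 CPM (log2 fold change -2.24, SE 0.15, adjusted p = 1.46e-08).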

How the data were processed

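RNA was measured in 12 libraries, 4 per group, with an Illumina stranded mRNA kit and paired 150-base reads, per the labels' protocols. The authors deposited estimated counts per gene. Salmon 1.10.1 and mm10 are named in the submitters' processing notes, and no source used here gives further settings. The table's columns call the macrophage states M0 and M1; they were read as naive and IFNγ/LPS, and every direction rests on this reading. Expected counts were rounded to whole numbers. Genes were filtered with filterByExpr, scaled by TMM and tested with edgeR 4.0.16 (quasi-likelihood F test, robust, 1 model over 12 libraries, two-sided, R 4.3.3), with Benjamini-Hochberg adjustment over 16140 genes and a threshold of 0.05. A standard error is the log2 fold change divided by the square root of F. CPM uses TMM-scaled totals. Members and lists were chosen with earlier results of these data known. All members were counted; values were given for the 12 highest in mean CPM, for the 6 largest rises and falls past the test per comparison, and for members against their family. Symbols matched 92% of identifiers; stem-loops and 3′ UTRs come from GENCODE M21, promoters from RefSeq. Intervals and floors (3 counts) cover counting error only. The fit was tested on simulated counts. Alternatives were DESeq2 1.42.0, limma-voom 3.58.1, other scalings and filters, the compared groups alone, a replicate block and leaving out each library.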

Additional observations from a re-analysis of the deposited data

Results flagged for a closer look

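In a group of 4 libraries, a value was singled out when its gap to the nearest other, as a share of the group's range, exceeded Dixon's 95% critical value. Of 147 such groups of 4 values, for the described members, the family sums and the related genes named above, 33 had one (22.4%), where chance gives about 1 in 20; the values of 1 library are not independent of each other.

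Regular medium replicate 4 accounted for 16, all high. Its summed levels were 183 CPM for H2A, 107 CPM for H3, 334 CPM for H4 and 1093 CPM for all members. Its CPM was 91.8 for Hist1h4d, 72.0 for Hist1h4h, 55.6 for Hist2h2aa2, 46.4 for Hist1h4c, 29.4 for Hist3h2a, 19.2 for Hist1h2ap, 18.7 for H2afx, 7.83 for Hist1h3g, 6.42 for Hist2h3b, 3.90 for Hist1h2af, 3.72 for Hist1h2an and 3.24 for Hist1h2ag. The cause was not tested.

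Naive CM replicate 3 was high in summed H2A (65.5 CPM), H3 (111 CPM) and H4 (172 CPM). It was also high in Hist1h4d (41.6 CPM), Hist1h2bb (46.5 CPM), Hist1h4c (27.5 CPM), Hist1h4h (24.5 CPM) and Hist2h2bb (34.9 CPM). IFNγ/LPS CM replicate 4 was high in summed H4 (59.9 CPM), Hist1h1d (10.9 CPM), Hist1h4d (20.8 CPM), Hist1h4c (11.3 CPM) and Hist1h2ag (0.206 CPM). In IFNγ/LPS CM, replicate 3 was low in Hist3h2a (20.955 CPM) and alone above 0 in Hist1h2ap (0.499 CPM), and replicate 2 was alone above 0 in Hist1h2an (0.0579 CPM) and low in H1fx (0.0289 CPM).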

How the results depend on the processing

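Counts of members called lower between IFNγ/LPS CM and naive CM stayed within 1.5 times of 41 under each alternative run, and ran from 36 to 56 when 1 library was left out. Members higher in naive CM than in regular medium numbered 31 by limma-voom in place of 18, and 15 to 55 with 1 library left out, 55 being without regular medium replicate 4. Members lower in IFNγ/LPS CM than in regular medium numbered 21 with only these 8 libraries in place of 36. With 1 library left out they ran from 21 to 45, and members higher ran from 0 to 4. The cause of these moves was not tested. Shares of all genes are given above for the main fit, without regular medium replicate 4 and for the conditioned-medium libraries alone. For the other runs, the replicate block included, they are not given. Those counts of members only describe how the calls moved. Scaling by library totals moved summed H1 to 358 CPM in naive CM and 85.1 CPM in IFNγ/LPS CM, summed H2B to 295 and 72.9 CPM, and summed H2A in IFNγ/LPS CM to 23.1 CPM. With it the log2 fold change of Hist3h2a turned to -0.26 against naive CM and -0.22 against regular medium, and that of Hist1h2bl against regular medium to -0.28. Between naive CM and regular medium limma-voom turned Hist1h4d to 0.24, Hist1h4h to 0.25, Hist1h2af to 0.93, Hist1h2an to 1.19 and Hist2h2aa2 to 0.16.

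Same-numbered libraries correlated between -0.108 and 0.157 over 12 pairs, 3 of them over 0.1, and 3 of 12 libraries correlated best with their own number. No strong pairing by number was seen. Such correlations cannot exclude that equal numbers share a culture or preparation. With the replicate block 43 members were lower between the conditioned media, 20 higher between naive CM and regular medium, and 31 lower between IFNγ/LPS CM and regular medium. Between naive CM and regular medium the block turned Hist1h4d to 0.21, Hist1h4h to 0.19, Hist1h2af to 0.62, Hist1h2an to 0.65 and Hist2h2aa2 to 0.15.

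Against regular medium the calls of IFNγ/LPS CM were also lost for Hist1h1c without IFNγ/LPS CM replicate 2 or 4 (adjusted p at most 0.0559), Hist1h2ag without its replicate 1, 2 or 3 (at most 0.0564), Hist1h2bn without regular medium replicate 1 or 4 or IFNγ/LPS CM replicate 2 or 3 (at most 0.0779), and Hist2h2aa2 without regular medium replicate 4 or IFNγ/LPS CM replicate 1, 2 or 3 (at most 0.0989).

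Leaving out 1 library turned the sign of values that had not passed the test. Between naive CM and regular medium the ranges were -0.98 to 2.09 for Hist1h2af, -1.13 to 2.57 for Hist1h2an, -0.43 to 3.11 for Hist1h2ap, -0.25 to 0.035 for Hist1h2bc, -0.10 to 1.15 for Hist1h4c, -0.43 to 0.87 for Hist1h4d, -0.78 to 1.11 for Hist1h4h, -1.35 to 1.24 for Hist2h2aa2 and -0.038 to 0.29 for Hist3h2a. Hist1h2bc ranged from -0.037 to 0.036 between the conditioned media and from -0.26 to 0.025 against regular medium, and Hist1h2bl from -0.20 to 0.44 in the latter. Depth limits the sparse H2A genes, and shared sequence limits single H2A copies.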
